A study of Bos taurus with 2 samples.

Results

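Isolated shared peaks are H3K4me3-marked regions that were called in both the tender and the tough group and that stand alone on the chromosome. On chromosomes 1 to 29, tender and tough peaks that overlapped by 1 bp or more were merged. A merged region was kept if it held peaks of both groups and if the next merged region of any kind lay more than 300 kb away on each side. The first and the last region of a chromosome were left out. This gave 337 isolated shared regions among 13912 merged regions, of which 9597 were shared between the groups. The regions were thus chosen by measured values, namely the called extents of the peaks in both libraries and the distances between them, so presence in both groups and distance are given as a description, without a test.

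Trimethylation of lysine 4 on histone H3 is placed mainly around the transcription start sites of active or poised genes, and in mammals it sits mostly on promoters rich in CpG dinucleotides. Genes are spread unevenly over mammalian chromosomes, with crowded stretches and long gene-poor stretches known as gene deserts, some of which flank genes that control development. Whether a marked region has close neighbours therefore depends both on where it lies and on how many promoters around it carry the mark in the tissue studied. No gene annotation of the assembly of the peak lists was at hand, so the regions are named by position only, and neither their genes nor markers of muscle were analysed here.

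The chromatin came from the longissimus dorsi (LD), the loin muscle, of Aberdeen Angus steers of about 12 months. Equal aliquots of 4 tender steers (Warner-Bratzler shear force 6.77 ± 0.56 kg, as labelled) were pooled for 1 library and those of 5 tough steers (19.93 ± 0.39 kg) for the other. The shear force is the force needed to cut a core of cooked meat. Both pools were cut with micrococcal nuclease and precipitated with the same H3K4me3 antibody, and each group is 1 pooled library. The spread between steers can therefore not be seen, and differences between tender and tough muscle have no replicate check. Whole muscle was used, and the lists do not show in which cell type of the muscle a region was marked.

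Each peak carries a score from SICER, which grows as the reads in its 200 bp windows exceed what the average window of the library would hold. The average window held 0.157 tender or 0.182 tough reads, which makes the tough library 1.17 times as deep if both were scored with the same genome size. From the scores the number of reads in a peak could be worked out up to a score of 180. This was possible in both groups for 314 of the 337 isolated regions. Of the other 23 regions, 17 exceeded the limit in the tender library alone, 3 in the tough library alone and 3 in both. All intervals below are for shares of regions and treat the regions as independent draws. They cover neither the error of the read numbers nor the spread between steers.

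The isolated regions lay a median of 482 kb from the nearer neighbouring region (quartiles 376 and 659 kb) and a median of 1000 kb from the farther one. Over all shared regions with neighbours on both sides, the median distance to the nearer neighbour was 22.6 kb. For 234 isolated regions, or 69.4%, the nearer neighbour was at most 600 kb away, and for 34 it was more than 1 Mb away. Together the gaps beside isolated regions, 591 in number, covered 628 Mb, or 25.3% of the length from the first to the last region of each chromosome, whereas the regions themselves covered 0.951 Mb.

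**Figure D1:**
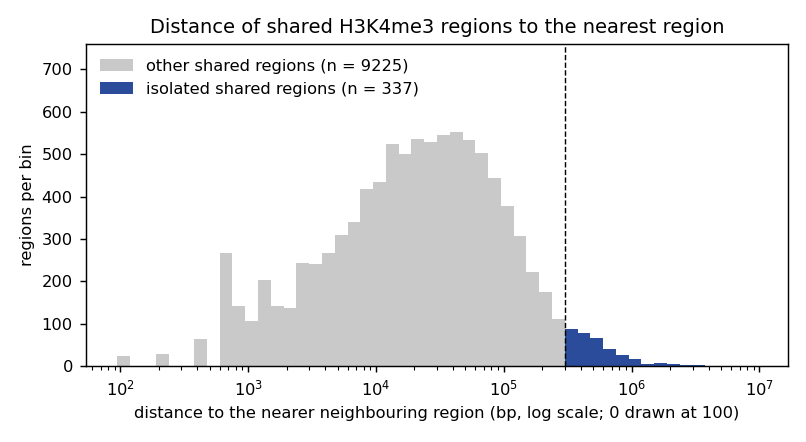
Number of shared regions by the distance to the nearer neighbouring merged region (x axis in bp, log scale, with distances of 0 drawn at 100 bp; y axis in regions per bin). Grey bars are the other shared regions with a neighbour on both sides and blue bars the 337 isolated ones, which by the rule all lie to the right of the dashed line at 300 kb and form the sparse upper tail with a median of 482 kb.

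The most isolated region lay on chromosome 12 from 40890001 to 40893400, with 4147.6 kb free of any called region before it and 6887.2 kb after it. It held 33 tender and 48 tough reads. A further pair of the 5 most isolated regions lay on the same chromosome. The region from 62662001 to 62666600 had gaps of 6970.2 and 3407.8 kb and held 33 tender and 27 tough reads. The region from 5201001 to 5204000 had gaps of 3070.2 and 5966.8 kb and held 16 tender and 17 tough reads. The remaining regions of these 5 were on chromosome 1 from 28970401 to 28973400 (gaps of 2881.8 and 3420.4 kb, 31 tender and 34 tough reads) and on chromosome 3 from 62837801 to 62842400 (gaps of 2530.2 and 4051.4 kb, 41 tender and 24 tough reads). The rule itself requires a call in both libraries. The read numbers of all 5 lay between the lowest and the highest counted among the isolated regions.

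The regions just inside and just outside the limit of 300 kb differed little in distance, as they were picked for this, and no other values were compared here. The innermost regions were on chromosome 3 from 77092601 to 77094000 with 301.0 kb to its nearer neighbour, on chromosome 15 from 28961601 to 28966800 with 302.0 kb, and on chromosome 14 from 16354401 to 16363600 with 302.2 kb. The nearest regions left out were on chromosome 5 from 71750401 to 71754600 with exactly 300 kb, on chromosome 9 from 76113801 to 76117000 with 299.4 kb, and on chromosome 3 from 81351801 to 81354600 with 299.2 kb.

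Isolated regions often followed one another, which the rule itself favours. The neighbour of an isolated region already has more than 300 kb free on the side facing it, and no background share was worked out. In 141 of the 337 (41.8%) the next called region on at least one side was itself an isolated shared region, and these formed 58 runs of 2 to 6 regions. The longest run held 6 regions on chromosome 7 from 102225201 to 109244800, a stretch of 7.02 Mb. Within it the tender reads were 34, 29, 18, a number above the counting limit, 36 and 27 from left to right, and the tough reads were 21, 25, 17, 34, 29 and 16. Chromosome 4, which also held the most isolated regions (30), had 5 runs of 3 or more regions, more than any other chromosome. Among them were runs of 4 from 19892601 to 24022000 and from 28455801 to 30840200, with a run of 3 between them from 25783601 to 27070200.

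Most neighbours at the far side of the gaps were shared regions, as were most merged regions. On 166 of the 674 sides the neighbour was itself an isolated shared region, which the rule makes shared. On the other 508 sides the neighbour was shared in 332 (65.4%), called in the tender group alone in 117 (23.03%) and in the tough group alone in 59 (11.6%). Among all merged regions, isolated ones included, the shares were 69.0%, 19.7% and 11.3%. Regions called in a single group could also be isolated. Of 525 isolated regions of any kind, 337 were shared (64.2%, interval 60.0 to 68.2%), 128 were tender only and 60 were tough only. The isolated share was 3.51% of the shared regions (interval 3.16 to 3.90%), 4.67% of the tender-only regions (3.94 to 5.53%) and 3.81% of the tough-only regions (2.97 to 4.88%). The isolated single-group regions were weakly marked, with a median of 13 reads in the tender-only and 14 in the tough-only regions, close to the medians of 12 and 14 reads in the single-group regions that were not isolated.

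Chromosome 4 held the most isolated shared regions, 30 of its 278 shared regions, or 10.8% (95% Wilson interval 7.66 to 15.0%). It was followed by chromosome 14 with 8.06% (17 of 211), chromosome 9 with 7.89% (18 of 228) and chromosome 8 with 7.26% (23 of 317). At the other end were chromosome 19 with 0.475% (3 of 632, interval 0.162 to 1.39%), chromosome 23 with 0.662% (2 of 302) and chromosome 25 with 1.02% (4 of 392). Chromosomes with more merged regions per Mb had a smaller isolated share, with a Spearman's rho of -0.89 over the 29 chromosomes. Both measures count the same regions, so the correlation describes how the distance rule meets the density of regions and has no independent meaning. The intervals of chromosomes 4, 14, 9 and 8 overlap, so their order is not resolved.

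**Figure D2:**
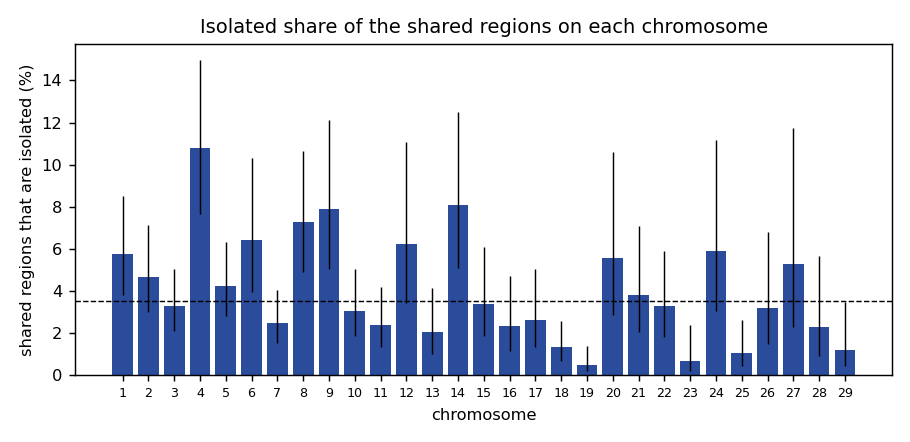
Share of the shared regions on each chromosome that are isolated (y axis in percent), with 95% Wilson intervals as vertical lines and the share over all chromosomes, 3.51%, as a dashed line. Chromosome 4 stands highest at 10.8% and chromosome 19 lowest at 0.475%.

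Along the chromosomes, isolated regions were placed differently from the other shared regions. With each chromosome cut into equal terciles up to its last region, 35.6% of the isolated regions lay in the first tercile, 38.3% in the middle and 26.1% in the last (95% Wilson interval of the last 21.7 to 31.1%). Of the 9260 other shared regions, 28.1%, 31.7% and 40.2% lay there. When the other shared regions were weighted to the same chromosomes as the isolated ones, the share in the last tercile was 39.9%. Isolated regions were thus scarcer toward the end of the coordinates than the rest, and the difference was nearly as large after weighting for the chromosomes. Position enters the distance rule through the density of regions, so no test was made.

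In strength the isolated regions lay in the middle of the shared ones. The SICER score, summed over the peaks of a region, had a median of 79.3 for tender (quartiles 53.1 and 111) and 64.7 for tough muscle (quartiles 44.6 and 89.2). In the other shared regions the medians were 77.6 and 66.5. The medians of the counted reads were 27 in the tender group (317 regions, range 10 to 64) and 25 in the tough group (331 regions, range 11 to 64), against 26 in each group in the other shared regions. Per kb of peak the isolated regions held a median of 13.3 tender and 11.2 tough reads, and the others 13.1 and 10.9. At the median, a mark that stood alone was thus about as dense as one with closer neighbours, in both libraries.

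High and low scores were both found among the isolated regions. With the shared regions ranked by score, the top decile began at a score of 169 for tender and 143 for tough muscle. It held 24 of the 337 isolated regions in the tender group (7.12%, 95% Wilson interval 4.83 to 10.4%) and 22 in the tough group (6.53%, interval 4.35 to 9.69%), against 10.1% of the other shared regions in each group. Weighted to the chromosomes of the isolated regions, the shares in the others were 9.42% by tender and 9.49% by tough score, which lie within these intervals. The weighted shares have no interval of their own, so this comparison does not decide whether the sets differ. The lowest quartile of all shared regions held 21.4% of the isolated regions by tender and 24.6% by tough score.

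By score, a single isolated region stood far above the rest. With no control library named, how much of such a score is background was not tested. This region lay on chromosome 1 from 61603201 to 61604800, with gaps of 588.4 and 3039.2 kb, and scored 708 in tender and 1115 in tough muscle. It started and ended at the same window in both groups and was only 1600 bp long, so that its score per 200 bp window was 88.5 in tender and 139 in tough muscle, against medians of 7.70 and 5.72 over the isolated regions. The next region in both groups lay on chromosome 2 from 43583601 to 43586600, with scores of 369 and 270. It was followed in both groups by the region on chromosome 14 from 16354401 to 16363600, with scores of 307 and 266. The next tender scores were 248 on chromosome 4 from 26447201 to 26449600 and 230 on chromosome 8 from 41246801 to 41250400, where the tough scores were 99.5 and 154. The next tough scores were 242 on chromosome 2 from 95900401 to 95905800 and 202 on chromosome 15 from 84837801 to 84840200, where the tender scores were 155 and 122. The scores of the groups are not on a common scale, because the same reads score lower in the deeper library. On chromosome 1 the tough score was the higher one all the same. Each region named in this paragraph exceeded the counting limit in at least 1 group, so none was among those compared by reads.

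In length the isolated regions were close to the other shared regions, and some of them were broad. Tender peaks had a median length of 2000 bp (quartiles 1400 and 2600) and tough peaks of 2200 bp (quartiles 1800 and 3000), against 2000 and 2400 bp in the other shared regions. Merged regions of 5 kb or more, the size of the broad H3K4me3 domains that often cover genes of cell identity, made up 22 of the 337 isolated regions (6.53%, 95% Wilson interval 4.35 to 9.69%) and 10.8% of the other shared regions (interval 10.2 to 11.5%). Weighted to the chromosomes of the isolated regions, the share in the others was 9.19%, which lies within the interval of the isolated regions. The weighted share has no interval of its own, so this comparison does not decide whether the sets differ. The unweighted intervals did not overlap. The merged length spans the peaks of both groups. By the tender peaks alone, 9 isolated regions reached 5 kb (2.67%, interval 1.41 to 5.00%), against 4.47% of the other shared regions (4.07 to 4.91%). By the tough peaks alone, 15 did so (4.45%, interval 2.72 to 7.21%), against 7.75% of the others (7.23 to 8.32%). These unweighted intervals overlapped for tender but not for tough muscle. The longest isolated region was the one on chromosome 14 from 16354401 to 16363600, 9200 bp long in tough and 5600 bp in tender muscle. It was followed by the regions on chromosome 16 from 79769201 to 79776400 (tender 3200 bp, tough 7000 bp), chromosome 3 from 79323801 to 79330800 (6000 and 6200 bp), chromosome 10 from 66752201 to 66759200 (6800 and 5400 bp) and chromosome 11 from 71346401 to 71353400 (6400 bp in 2 tender peaks and 5200 bp in 1 tough peak).

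Across all shared regions the share of broad regions, by merged length, fell with the distance to the nearer neighbour. It was 18.4% of 1965 regions with a neighbour within 5 kb, 12.4% from 5 to 20 kb, 7.29% from 20 to 50 kb, 6.82% from 50 to 100 kb and 5.91% from 100 to 300 kb. The isolated regions continued at this level, with 9.65% of 114 regions from 300 to 400 kb, 5.00% of 120 from 400 to 600 kb and 7.25% of 69 from 600 to 1000 kb. Beyond 1 Mb, 0 of 34 regions were broad, which by a limit of 3 counts allows a share of up to 8.82%. The score showed no such trend. Its median stayed between 65.5 and 82.1 for tender and between 61.6 and 68.8 for tough muscle over the same distances, and within the isolated regions Spearman's rho between the distance and the score was -0.05 for tender and 0.01 for tough (337 regions, all from the same 2 libraries).

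**Figure D3:**
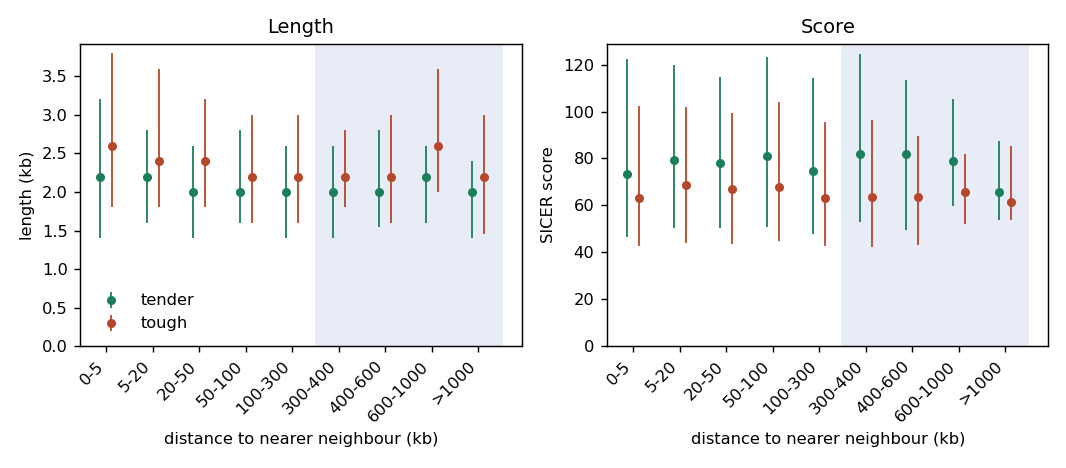
Length in kb (left) and SICER score (right) of shared regions by the distance to the nearer neighbour in kb, as medians (points) with quartiles (lines) for the tender (green) and tough (red) library. The shaded classes are the isolated regions, whose medians of 2.0 to 2.6 kb in length lie within the range of the classes with closer neighbours.

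The extent of the mark was similar but not identical in the libraries. Each group's extent was taken from its first to its last called base, with any gap between its peaks included. The overlap of the tender and tough extents made up a median of 71.4% of an isolated merged region (quartiles 55.6 and 83.3%), against 66.7% in the other shared regions. The start fell in the same window in 76 isolated regions (22.6%), the end in 77 (22.8%) and both in 18 (5.34%), against 19.9%, 19.7% and 4.40% of the others. The tough peak was the longer one in 194 of the 337 regions (57.6%, 95% Wilson interval 52.2 to 62.7%), beside 60.1% of all shared regions, and the tender peak in 99 (29.4%), beside 30.1%. Longer tough peaks thus prevailed in isolated regions to about the same degree as in all shared regions. The tough library was the deeper one, and the part of depth in this was not tested. The smallest overlap, 15.4% of the merged region, was on chromosome 15 from 28961601 to 28966800, where the tender peak ended at 28963800 and the tough peak began at 28963001.

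In 11 isolated regions (3.26%) the tender group had 2 peaks under a single tough peak, against 2.67% with more than 1 tender peak in the other shared regions. The reverse, more than 1 tough peak, was seen in 0 of 337 isolated regions, which by the limit of 3 counts allows a share of up to 0.890% (Wilson upper limit 1.13%), and in 1.14% of the others. An example is the region on chromosome 8 from 42828201 to 42834000, with 61 reads in the 2 tender peaks and 55 in the tough peak.

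**Figure D4:**
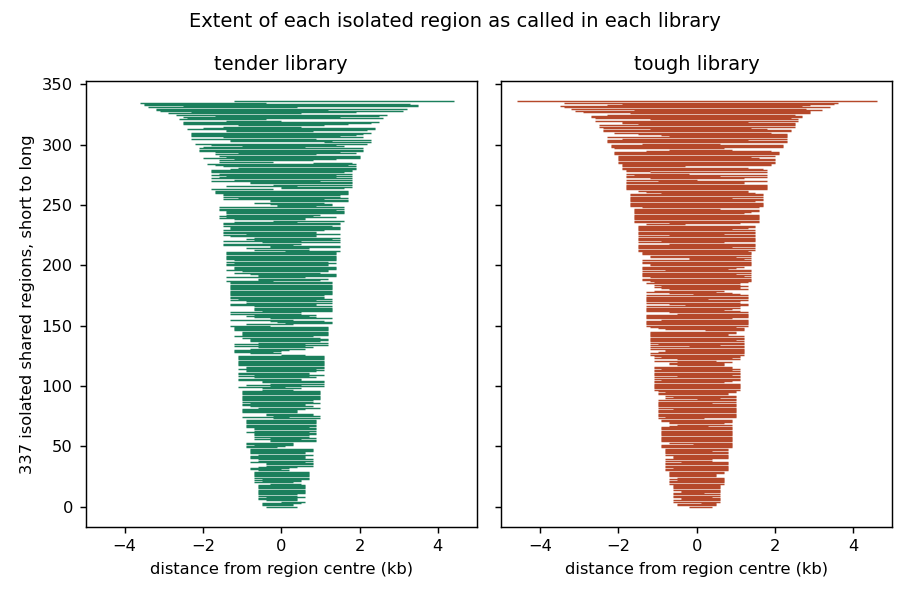
Extent of the mark in each of the 337 isolated shared regions, 1 line per region from the first to the last base called in the tender (left) and the tough (right) library, sorted from short to long merged regions and centred on the merged region (x axis in kb from the centre). Most lines stay within 2 kb of the centre, and in 11 tender regions the line spans 2 peaks.

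The reads in the isolated regions were compared between the tender and the tough library. The rule keeps only regions called in both, and where counted these held at least 10 tender and 11 tough reads. Regions too weak to be called in 1 of the libraries were left out beforehand, so the selection itself narrows the range of ratios below. In the 314 regions with counted reads the tender library had 8853 and the tough library 8336 reads, a tender share of 51.5%. Over all 8723 shared regions with counted reads this share was 50.6%, and it was taken as the expected share. The ratio of tender to tough reads, scaled by that share, had a median of 0.04 on the log2 scale (quartiles -0.24 and 0.38). The read numbers were within a factor of 2 in 303 regions and past it in 11 (3.50%, 95% Wilson interval 1.97 to 6.16%), beside 4.29% of all shared regions tested. This share was 0.744% when peaks with low scores were dropped, 5.73% when the expected share was taken from the depth of the libraries, and 6.55% in a second pair of lists on another assembly. Of the 11, 4 were higher in the tender library, beside 1.97% of all, and 7 in the tough library, beside 2.32% of all.

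Each region was then put to an exact binomial test against that share, adjusted by Benjamini-Hochberg over all 8723 regions. At an adjusted p under 0.05, 0 of the 314 isolated regions passed, which by the limit of 3 counts allows a share of up to 0.955% (Wilson upper limit 1.21%), beside 0.126% of all regions tested (0.0688% higher in tender and 0.0573% higher in tough). The count rests on the expected share. With a tender share of 46.2% taken from the depth, 2 isolated regions passed, and 69 of all regions (0.791%) did so in place of 11. With peaks up to 400 bp apart merged, 1 isolated region passed. At an unadjusted p under 0.05 there were 22, or 7.01%, beside 8.38% of all. The test compares the 2 libraries and not the steers, and no other test was run. It allows for counting error of the reads only, so its p-values are too small where the reads spread more than that. The counts at the expected share of 50.6% were near the background. When 200 of the shared regions were given a 4-fold difference in simulated Poisson reads, 91.5% of these were called. The changed regions held more reads in sum than the real ones. The simulation also had no calling limit and no spread beyond counting error, so this share need not hold for these data.

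The largest excess in the tender library was on chromosome 9 from 67592201 to 67595000, where peaks of the same 2800 bp held 56 tender and 21 tough reads. This is a scaled log2 ratio of 1.38 (exact binomial p = 9.06e-05, adjusted p = 0.056). The call turned under both alternatives named above, with an adjusted p of 0.049 after merging and of 0.0038 with the share from the depth, in the same exact binomial test. It was followed by chromosome 4 from 79442401 to 79446000 with 36 tender and 14 tough reads, which was the other region that passed with the share from the depth, chromosome 4 from 30838201 to 30840200 with 28 and 12, chromosome 3 from 45562801 to 45565200 with 33 and 16, and chromosome 4 from 14362801 to 14365600 with 34 and 17 reads. Reads per kb of peak were also higher in tender muscle in all 5, by the most on chromosome 9 with 20 against 7.50 and by the least on chromosome 4 from 79442401 with 10.6 against 8.75, where the tender peak was 3400 and the tough peak 1600 bp long.

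The largest excess in the tough library was on chromosome 1 from 75100601 to 75102800, with 15 tender and 37 tough reads in peaks of 2000 bp each, a scaled log2 ratio of -1.34 (exact binomial test, adjusted p = 0.21). The next were chromosome 21 from 2441001 to 2445600 with 19 tender and 44 tough reads, chromosome 22 from 1105201 to 1110200 with 11 and 25, chromosome 5 from 42835401 to 42839000 with 14 and 31, and chromosome 18 from 61614001 to 61616600 with 13 and 28 reads. In these 4 regions the tough peak was the longer one by 1000 to 3400 bp. Per kb of peak, tough muscle had more reads only on chromosome 18, with 10.8 against 8.13, whereas the values on chromosome 21 were 9.57 tough against 15.8 tender reads, with 5.00 against 5.50 on chromosome 22 and 8.61 against 8.75 on chromosome 5. Reads were taken from the peak of each group, so a broader call and more reads cannot be told apart there.

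**Figure D5:**
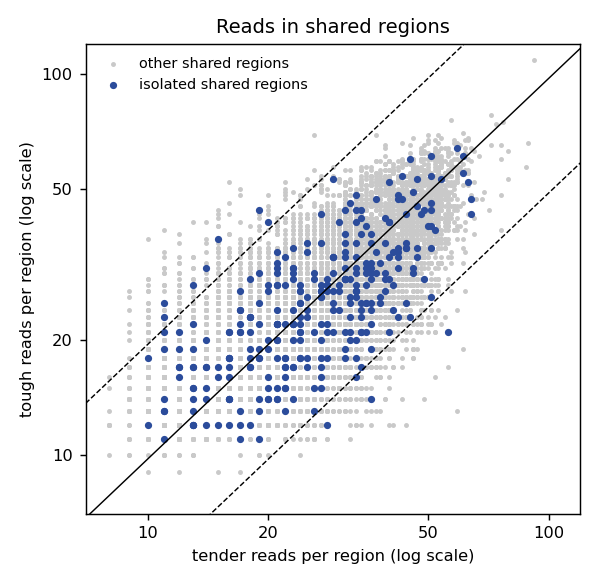
Tender against tough reads per shared region on log axes, for the 314 isolated regions with counted reads (blue) and the other shared regions (grey). The solid line is the expected ratio from all counted reads and the dashed lines lie 2-fold from it, with 303 blue points between them and 11 on or beyond them.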

How the data were processed

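Per the methods of the study, the authors aligned reads with Maq to bosTau4, kept uniquely placed reads with at most 1 mismatch and dropped duplicates, and peaks were called with SICER (version 1.1 in the submitters' processing notes) with a 200 bp window, a 400 bp gap and an E-value of 100. The deposited value of a peak is its SICER score, with no scaling between libraries and no control library named. For each library there are 2 deposited lists. The lists without peak names were used, and the lists with peak names served as an alternative. On chromosome X the former reach 148.8 Mb and the latter 87.9 Mb, so they are on different assemblies. The lists used here state none, and their positions, counted from 1, should not be taken as bosTau4 positions.

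Reads per peak were found by matching each score up to 180, within 1.5e-09, to a sum over windows of minus the natural log of a Poisson probability. Every peak up to that score matched exactly 1 number of reads (94.0% of all tender and 96.5% of all tough peaks). Regions called in both groups were compared by a two-sided exact binomial test with Benjamini-Hochberg adjustment over all of them. Medians and shares are descriptions, with Wilson intervals for shares and, for counts of 0, a limit of 3 counts of the total. On simulated peaks with scores up to 100, 100% of read numbers were recovered, and higher scores and the longest peaks were not simulated. In simulated Poisson reads, without a calling limit or spread beyond counting error, 2.14% of the calls were false. The isolated regions and the lists of named regions were chosen with earlier results of these data known. Named are the 5 regions highest in each group's score, in distance, in length and in each direction of the read ratio, with 3 on either side of the limit, and regions past the test's threshold. Further regions (runs, the smallest overlap and a split peak) were named after their values were seen. Gene names, sequences, CpG content and the gene lists were not analysed here, since neither sequence nor annotation of the assembly was at hand. Alternatives were other distances, merging, score limits, overlaps and expected shares. The tools were scipy 1.17.1, pandas 2.3.3, numpy 2.4.6 and matplotlib 3.10.9 under Python 3.11.15.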

Additional observations from a re-analysis of the deposited data

How the results depend on the processing

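The number of isolated shared regions, 337, follows the rule. It was 574 with 200 kb and 156 with 500 kb on each side, where the median distance to the nearer region was 335 and 680 kb, and 588 when only shared regions counted as neighbours. With peaks below 2 times the lowest score dropped, the median reads rose to 33 tender and 31 tough, and they fell to 23 and 23 with a score limit of 100. The share of regions past 2-fold was 0.744% with the low-scoring peaks dropped and 6.55% in the lists with peak names. Merging peaks up to 400 bp apart let 1 isolated region pass the exact binomial test, on chromosome 9 from 67592201 to 67595000 (adjusted p = 0.049). With an expected share taken from the depth, 2 passed the exact binomial test, that one (adjusted p = 0.0038) and chromosome 4 from 79442401 to 79446000 (adjusted p = 0.041), both higher in tender. The cause was not tested. Among all shared regions 11 passed, against 18 with merging, 69 with the depth, 13 with a score limit of 220, 3 in the lists with peak names, 1 with low-scoring peaks dropped, 0 with 50% overlap of both peaks and 0 with the score limit of 100. The smallest adjusted p among the isolated regions ran from 0.0038 to 0.54 over 10 alternatives. The other 60 values stayed within the interval of the value reported or within 1.5 times the count. The lists with peak names and the score limit of 220 were chosen after seeing the data. No paired analysis was possible because each group is 1 pooled library.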

Other observations

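The lists with peak names place the same libraries on another assembly, where the same rule was applied on its own. It found 379 isolated shared regions among 9254 shared regions (4.10%), with median peak lengths of 2000 bp for tender and 2200 bp for tough, and a median of 25 reads for each. Regions of 5 kb or more made up 5.01% of the isolated (95% Wilson interval 3.23 to 7.70%) and 11.3% of the other shared regions (interval 10.6 to 11.9%). These intervals did not overlap, but the shares were not weighted to the chromosomes. Chromosome 4 again had the highest isolated share, 11.0% (31 of 281), and chromosome 19 the lowest, 0.505% (3 of 594). In the last tercile of the chromosomes lay 27.7% of the isolated (interval 23.4 to 32.4%) and 39.9% of the other shared regions.

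The strongest isolated regions in these lists were a 600 bp region on chromosome 1 from 11395401 to 11396000, with a tender score of 507 and a tough score of 1214, and a 1400 bp region on chromosome 27 from 7418601 to 7420000, with scores of 973 and 365. As positions were not carried from one assembly to the other, it is not known whether the first of these is the strongest isolated region described above.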
